A study of Rattus norvegicus with 96 samples.

Results

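Astrocyte transcripts were examined through 5 genes that mark this cell type, Gfap, Aqp4, Aldh1l1, Slc1a3 and Slc1a2, out of the 17637 genes in the count table. The genes were named as astrocyte markers, with earlier results of these data known, and their rows were found through the gene identifiers that the study pairs with symbols: ENSRNOG00000002919 for Gfap, ENSRNOG00000016043 for Aqp4, ENSRNOG00000047023 for Aldh1l1, ENSRNOG00000016163 for Slc1a3 and ENSRNOG00000005479 for Slc1a2. All 5 passed the filter on low counts, a size-factor-normalized count over 10 in at least 3 libraries, which left 16879 genes for testing.

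The libraries are bulk RNA-seq of 3 regions, VTA, NAc core and NAc shell, from 32 F1 rats bred from the inbred Fischer-344 (F344) and Brown Norway (BN) strains in both reciprocal crosses, 16 rats per sex. Their age is given only for the behavioural rats of the study, which were young adults. Nicotine (NIC) rats received 0.4 mg/kg daily for 4 days and saline (SAL) rats received the vehicle on the same days. Tissue was dissected by hand on day 17 by the labels, with no further injection after the 4 days. The 12 groups hold 8 libraries each, but male VTA SAL and female NAc core NIC hold 7, which gives 94 in all, with totals between 15868529 and 27736905 counts. Each group's libraries come from separate rats, so p-values of comparisons within a region measure the spread between these rats. The main comparison of regions treated the libraries of a rat as separate, so its p-values do not use the pairing of regions within a rat. The male libraries stand in one sample box and the female libraries in another, and few of the prep batches named in the labels hold both NIC and SAL libraries of one sex and region.

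Region markers matched the labels in most libraries. Th, the enzyme that limits dopamine synthesis, was at 316 CPM (counts scaled to library size by TMM) or more in 30 of the 31 VTA libraries and at 3.90 CPM or less in NAc. Female VTA nicotine 2 stood apart with Th at 17.9 CPM, Slc6a3 at 22.6 CPM, the nicotinic subunits Chrna3 and Chrnb4 at 43.1 and 10.1 CPM, the highest of all VTA libraries, and the choroid plexus transcript Ttr at 2550 CPM. Male NAc core saline 1 and male NAc shell saline 1 had the lowest Drd1 of their regions, 9.28 and 5.09 CPM, against medians of 92.3 and 82.6 CPM.

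Astrocytes take up the glutamate and potassium that neurons release, move water along blood vessels and pass metabolites to neurons. Slc1a2 (GLT-1) and Slc1a3 (GLAST) are the main astrocytic glutamate transporters, Aqp4 is the water channel of the end-feet that wrap vessels, Aldh1l1 is a folate enzyme used as a general astrocyte label, and Gfap is an intermediate filament protein that is dense in fibrous and reactive astrocytes. In the mesolimbic pathway, glutamate uptake by GLT-1 in NAc is known for its change after drug exposure. In bulk tissue, fewer astrocytes and less RNA per astrocyte cannot be told apart, and this holds for every value given here.

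The 5 genes fell into 2 sets by region. Gfap, Aqp4 and Aldh1l1 were higher in VTA than in either part of NAc, while the glutamate transporters Slc1a3 and Slc1a2 were lower there. Gfap ranged from 865 to 3814 CPM with a median of 2267 over the 31 VTA libraries, from 403 to 750 CPM with a median of 591 in NAc core, and from 415 to 989 CPM with a median of 607 in NAc shell. The Gfap ranges overlapped only through female VTA nicotine 2, the lowest VTA library, since the next one was at 1380 CPM. Aqp4 ranged from 547 to 1457 CPM in VTA (median 1102), from 323 to 534 CPM in NAc core (median 386) and from 286 to 562 CPM in NAc shell (median 408). Its lowest VTA library, male VTA nicotine 15, lay above every NAc core library and just under the highest NAc shell library. Aldh1l1 did not overlap between VTA and NAc at all: its lowest VTA value was 31.6 CPM and its highest NAc value 29.6 CPM, with a median of 65.4 CPM in VTA and of 23.6 and 23.4 CPM in the core and shell.

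Slc1a3 went the other way, with a median of 508 CPM in VTA against 680 in the core and 702 in the shell of NAc. Its highest VTA library, at 580 CPM, was below the lowest NAc shell library at 603 CPM but above the lowest NAc core library at 549 CPM. Slc1a2 had a median of 15.3 CPM in VTA, 23.1 in the core and 21.1 in the shell, and its ranges overlapped, 12.0 to 22.4 CPM in VTA against 19.1 to 29.4 CPM in NAc core and 15.3 to 27.95 CPM in NAc shell. Slc1a2 rested on 216 to 604 counts per library, the fewest of the 5 genes, against 20399 to 88836 for Gfap in VTA. Slc1a2 is known as an abundant transporter in brain, so its few counts in this annotation limit how its values can be read, and the cause was not tested. CPM is not scaled to transcript length, so levels are compared between libraries and not between the 5 genes.

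**Figure D1:**
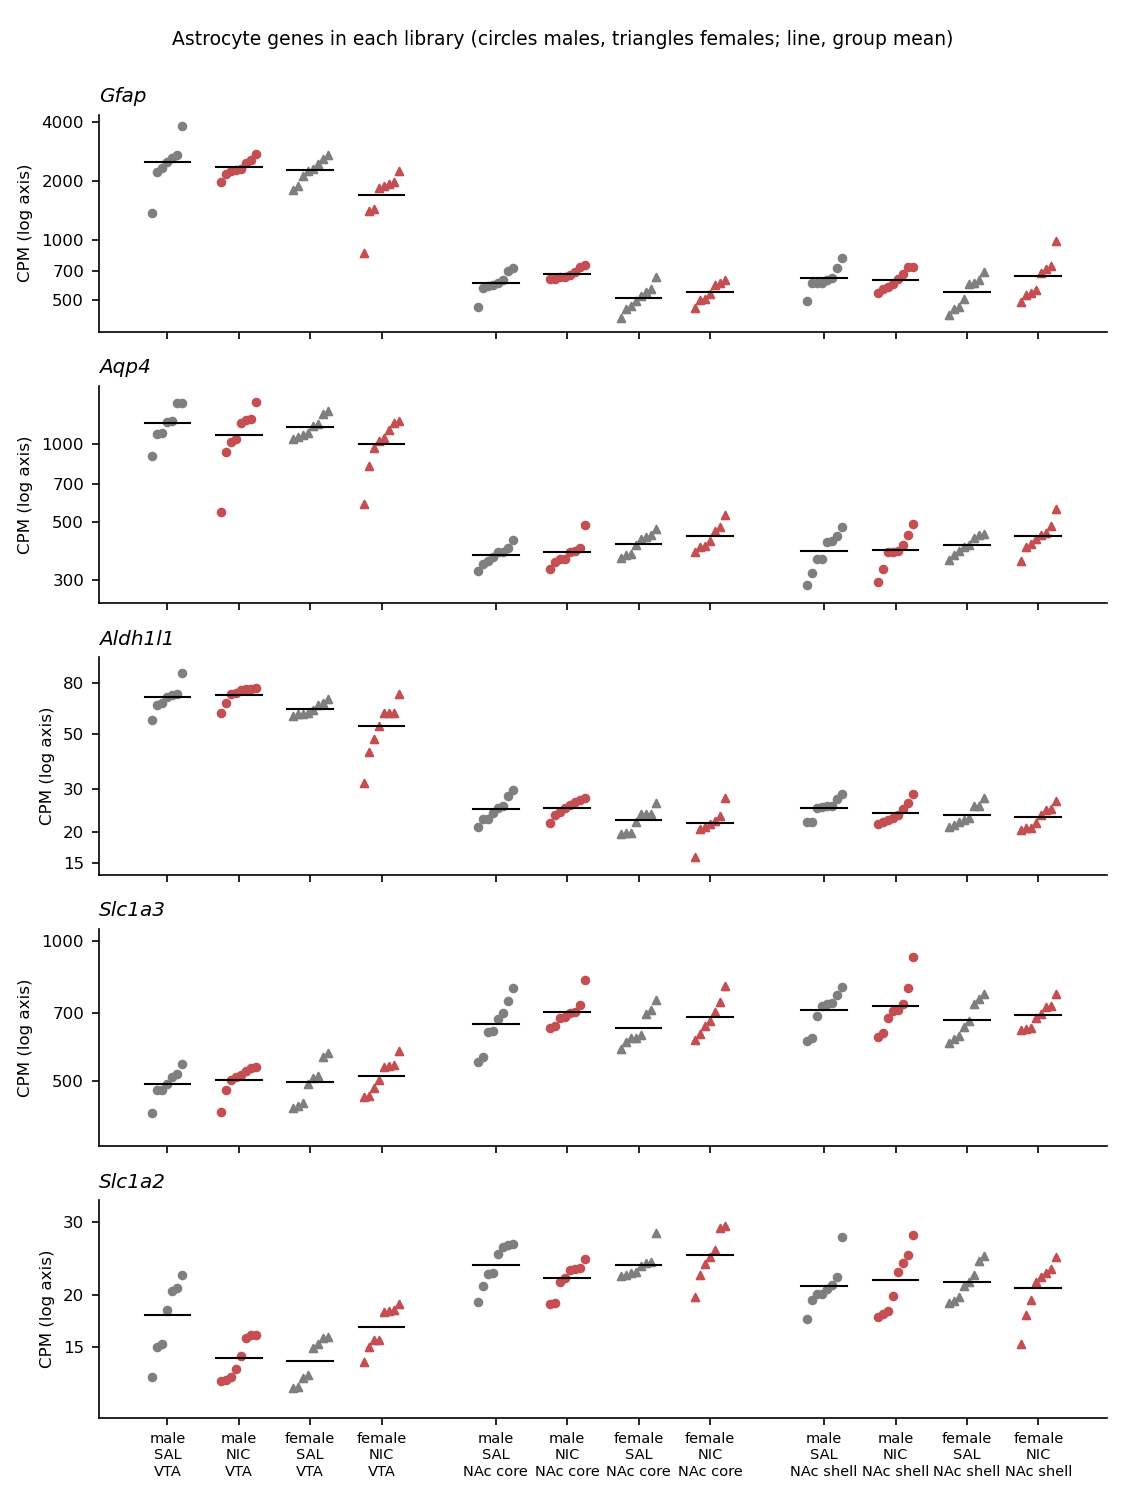
CPM of each astrocyte gene in each of the 94 libraries on a log axis, by region, sex and treatment, with grey SAL and red NIC points (circles males, triangles females) and a line at each group mean. Gfap, Aqp4 and Aldh1l1 lie higher in the 4 VTA groups than in the 8 NAc groups, and Slc1a3 and Slc1a2 lie lower.

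In a fit of all 12 groups with edgeR's quasi-likelihood test, Gfap was higher in VTA than in NAc core by 1.91 on the log2 scale (SE 0.067, adjusted p = 5.46e-44), which is 3.76-fold. Aqp4 was 2.77-fold higher (log2 1.47, SE 0.058) and Aldh1l1 2.73-fold higher (log2 1.45, SE 0.046). Slc1a3 was lower by a log2 difference of -0.43 (SE 0.035, adjusted p = 2.53e-20) and Slc1a2 by -0.59 (SE 0.048, adjusted p = 5.16e-20). Against NAc shell the log2 differences were 1.83 for Gfap, 1.45 for Aqp4, 1.42 for Aldh1l1, -0.48 for Slc1a3 and -0.45 for Slc1a2, and all 5 passed the test there too. A call alone says little here, because 81.6% of all tested genes differed between VTA and NAc core at an adjusted p under 0.05 (41.3% higher and 40.3% lower in VTA) and 80.8% between VTA and NAc shell (40.5% higher and 40.4% lower). By size of the p-value, Aldh1l1 ranked 104, Gfap 223 and Aqp4 444 of the 16879 genes in VTA against NAc core, while Slc1a3 ranked 3666 and Slc1a2 3762.

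Every rat with both tissues showed the same directions for 4 of the genes. Gfap, Aqp4 and Aldh1l1 were higher in VTA than in NAc core of the same rat in 30 of 30 rats and than in NAc shell in 31 of 31, and Slc1a3 was lower in all of them. Slc1a2 was lower in VTA than in NAc core in 30 of 30 rats and than in NAc shell in 28 of 31. The smallest within-rat differences of Gfap, Aqp4 and Aldh1l1 came from female 2, whose VTA library has the low dopaminergic markers: 0.55 on the log2 scale for Gfap against NAc core, where the median rat had 1.95. Without female VTA nicotine 2 the Gfap difference from NAc core was 1.94 in the fit, and without all 3 libraries that stand apart it stayed on the same side of the test for each gene.

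**Figure D2:**
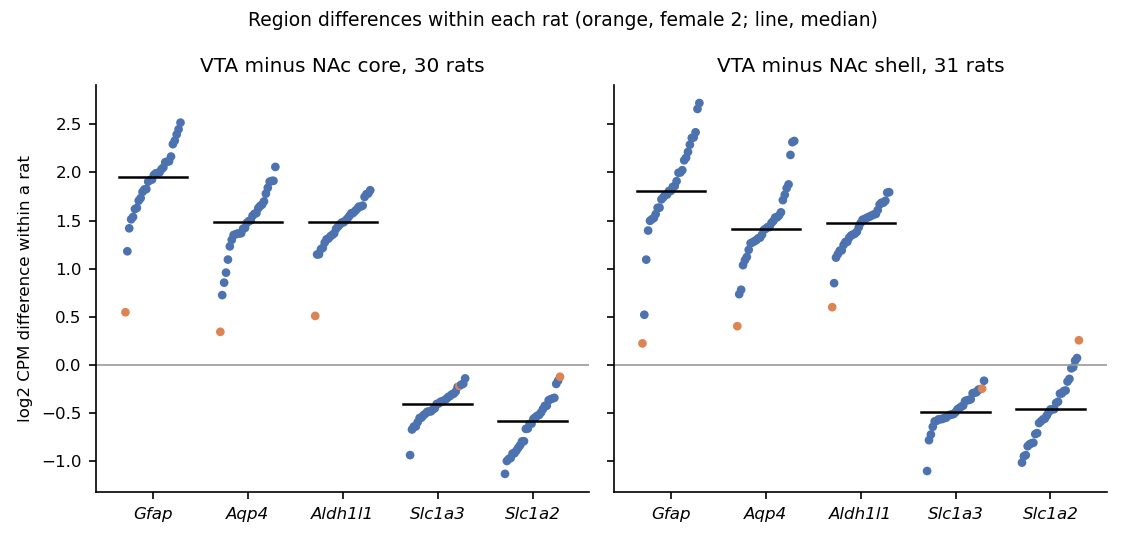
Difference in log2 CPM between VTA and NAc core (30 rats) and between VTA and NAc shell (31 rats) of the same rat for each gene, with a line at the median and female 2 in orange. All points of Gfap, Aqp4 and Aldh1l1 lie above 0 and all points of Slc1a3 below it, while 3 rats lie above 0 for Slc1a2 against NAc shell.

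The 2 parts of NAc differed little in these genes. Slc1a2 was the one that passed the test, 0.15 higher in NAc core on the log2 scale (SE 0.048, adjusted p = 0.0128), in 24 of 31 rats. The other 4 had log2 differences between -0.08 (Gfap, 95% interval -0.21 to 0.04) and -0.02 (Aqp4, -0.13 to 0.10). Across all tested genes, 32.3% differed between NAc core and NAc shell.

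Gfap, Aqp4 and Aldh1l1 shared the direction of their region difference, so the 250 bases before their annotated starts are shown, from RefSeq on GRCr8, a later build than the Rnor 6 on which the counts were made. Capitals mark matches, on either strand, to GGGCGG (the GC box) or CCAAT. Aqp4 has 2 annotated starts in the table and the one farther upstream was taken.

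Gfap (chr10:88361662-88361911, minus strand): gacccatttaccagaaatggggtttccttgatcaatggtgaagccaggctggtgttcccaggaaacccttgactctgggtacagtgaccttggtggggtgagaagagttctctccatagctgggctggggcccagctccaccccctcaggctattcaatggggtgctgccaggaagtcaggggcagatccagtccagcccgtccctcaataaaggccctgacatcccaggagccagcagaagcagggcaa

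Aqp4 (chr18:6798843-6799092, minus strand): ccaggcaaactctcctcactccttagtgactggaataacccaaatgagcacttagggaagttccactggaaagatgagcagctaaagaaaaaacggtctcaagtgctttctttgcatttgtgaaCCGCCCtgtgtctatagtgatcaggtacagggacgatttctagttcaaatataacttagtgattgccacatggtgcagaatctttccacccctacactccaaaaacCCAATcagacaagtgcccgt

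Aldh1l1 (chr4:124616970-124617219, plus strand): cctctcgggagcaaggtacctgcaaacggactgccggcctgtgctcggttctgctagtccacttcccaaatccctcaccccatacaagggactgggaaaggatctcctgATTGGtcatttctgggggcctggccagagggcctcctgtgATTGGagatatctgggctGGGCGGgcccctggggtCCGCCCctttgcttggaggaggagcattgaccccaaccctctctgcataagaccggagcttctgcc

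Aldh1l1 held 2 matches to each motif, Aqp4 held 1 to each, and Gfap held none, so the 3 windows do not share these letters. Over the 33469 promoter windows of the same length, 30.5% held GGGCGG and 34% held CCAAT. Matches to TTGGC, the NFI half-site, and to TTCNNNGAA, the STAT motif, were absent from all 3 windows, while 40.3% and 7.67% of all windows held them. These are descriptions of letters in short windows and say nothing of binding.

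The region difference was not common to all astrocyte genes. Beyond the 5 genes, 7 lists of astrocyte genes held 111 symbols, of which 62 were found in the table by the study's symbols and tested, 48 of them through the study's own tables of NIC and SAL comparisons on these samples. Counts of list genes called in NIC against SAL are therefore not independent of those tables. All 9 tested genes of potassium, water and ion transport were higher in VTA than in NAc core, with a median log2 difference of 0.85, against 0.01 over all tested genes. Kcnj10, the inward rectifier potassium channel Kir4.1, had a median of 28.2 CPM in VTA and 4.42 CPM in NAc core (log2 2.67, SE 0.14), and the zinc transporter Slc39a12 (log2 2.03, SE 0.084) and the sodium bicarbonate cotransporter Slc4a4 (log2 1.87, SE 0.13) followed it. Kcnj10 did not overlap between VTA and NAc core, where its highest value was 7.38 CPM against a lowest VTA value of 12.8 CPM, but the highest NAc shell library reached 15.5 CPM. Of the 6 metabolism genes, 5 were higher in VTA and none lower, led by the brain glycogen phosphorylase Pygb (log2 1.45, SE 0.06).

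Other lists held genes called in both directions, as the whole table did (41.3% higher and 40.3% lower in VTA than in NAc core), and the shares of the first 2 lists lay near those. Of 6 genes for glutamate, GABA and amino acid handling, 3 were higher in VTA than in NAc core (the cystine and glutamate exchanger Slc7a11 at log2 0.56, glutamate dehydrogenase Glud1 at 0.47 and glutamine synthetase Glul at 0.30) and 2 were lower (the glutamine transporter Slc38a3 at -0.37 and the neutral amino acid transporter Slc1a4 at -0.06). Of 9 genes for gap junctions, adhesion and secreted proteins, 4 were higher, among them Sparc (log2 1.29) and the connexin Gjb6 (1.08), and 3 were lower, led by Mfge8 (-0.75). Of 8 receptor and signalling genes, 6 were higher, led by the endothelin receptor Ednrb (log2 2.68, SE 0.13), and 1 was lower, the glutamate receptor Grm5 (-1.95, SE 0.13), which neurons also express. Of 7 transcription factors, 2 were higher (Nfib at 0.62 and Id3 at 0.31) and 4 lower, led by the forebrain patterning factors Lhx2 (-2.65, SE 0.24) and Emx2 (-1.61, SE 0.11). Lhx2 reached 39.6 CPM in one VTA library while its VTA median was 3.93 CPM.

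Of the 17 tested genes known to rise in reactive astrocytes, 15 were higher in VTA than in NAc core and 1 lower, with a median of 0.74, where 41.3% of all tested genes were higher and 40.3% lower. The copper protein ceruloplasmin Cp led with a log2 difference of 1.40 (SE 0.13), and transglutaminase Tgm1 was the lower one (-0.70, SE 0.105). Against NAc shell, where the shares over all genes were 40.5% and 40.4%, the counts were 9 of 9 higher for ion transport, 3 higher and 3 lower of 6 for glutamate and amino acid handling, 4 and 4 of 9 for gap junctions, adhesion and secreted proteins, 4 higher and 1 lower of 6 for metabolism, 7 and 1 of 8 for receptors, 3 and 4 of 7 for transcription factors, and 15 and 1 of 17 for reactive genes. Markers of other cells moved with the regions as well: all 8 oligodendrocyte genes were higher in VTA than in NAc core (median log2 1.56), as were all 7 meningeal fibroblast genes (1.39) and all 7 endothelial genes (0.35). Their part in the astrocyte differences was not tested. Without the 3 libraries that stand apart, 9 of 9 ion transport genes and 15 of 17 reactive genes remained higher in VTA than in NAc core at an adjusted p under 0.05.

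**Figure D3:**
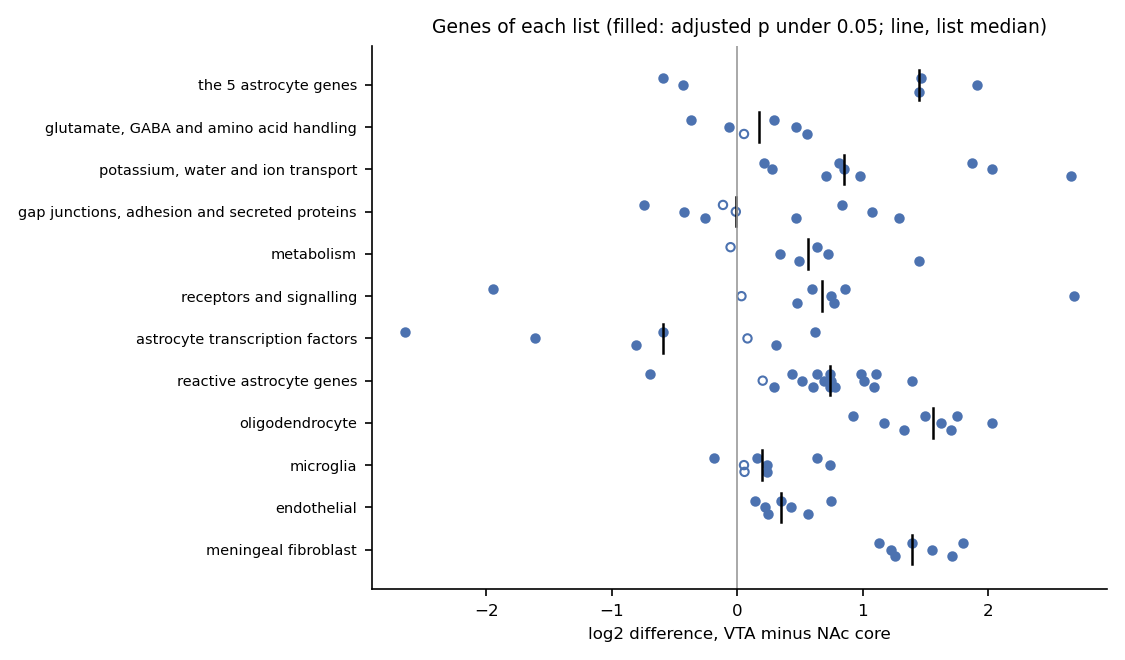
Log2 difference between VTA and NAc core for the tested genes of each list (filled points, adjusted p under 0.05; line, list median). Gfap, Aqp4 and Aldh1l1 lie right of 0 and Slc1a3 and Slc1a2 left of it, all 9 ion transport genes and all 8 oligodendrocyte genes lie right of 0, and the transcription factors spread to both sides.

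The comparison of NIC with SAL asks which transcripts differed after the drug-free interval, in each sex and region. None of the 5 genes passed an adjusted p of 0.05 in any of the 6 comparisons. No tested gene did either: the calls of edgeR were 0% of the 16879 genes in each, while DESeq2's own test called 0 genes in VTA, 4 in the core and 2 in the shell of males and 4, 3 and 9 in those of females, with no astrocyte member among them. At an unadjusted p under 0.05 the background was 5.62% of genes in male VTA, 9.83% in male NAc core, 2.46% in male NAc shell, 9.24% in female VTA, 6.45% in female NAc core and 10.1% in female NAc shell. Single libraries moved these shares: the number of genes went from 949 to 1554 in male VTA without saline 4, from 1660 to 1046 in male NAc core without nicotine 9, and from 415 to 831 in male NAc shell without saline 1, which stands apart, or 636 without nicotine 14. In females it went from 1559 to 2071 in VTA without nicotine 3, and from 1709 to 2503 in NAc shell without nicotine 7. In that last fit 3 genes passed an adjusted p of 0.05. Against that, 3 of the 30 member tests had an unadjusted p under 0.05, and all 3 were in VTA: Slc1a2 in males, and Slc1a2 and Gfap in females.

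Slc1a2 in VTA had opposite signs in the 2 sexes. In males, SAL libraries ranged from 12.7 to 22.4 CPM with a median of 18.4 and NIC libraries from 12.5 to 16.0 CPM with a median of 13.8. All 8 NIC males lay below the SAL median and 3 lay below the lowest SAL male, though the groups overlapped. The log2 difference was -0.33 (95% interval -0.57 to -0.09), with an adjusted p of 0.866 by edgeR and an exact permutation p of 0.0261. In females, SAL libraries ranged from 12.0 to 15.9 CPM with a median of 13.9 and NIC libraries from 13.9 to 19.0 CPM with a median of 16.9. Of the 8 NIC females, 7 lay above the SAL median and 4 above the highest SAL female. The log2 difference was 0.26 (95% interval 0.08 to 0.45), with an adjusted p of 0.509 by edgeR and an exact permutation p of 0.0087.

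The difference between the sexes in this response was tested directly. The interaction of sex and treatment for Slc1a2 in VTA was 0.61 on the log2 scale (SE 0.14, unadjusted p = 0.000212 by edgeR), rank 5 of the 16879 genes, and its adjusted p was 0.350. At an unadjusted threshold of 0.05 that comparison called 11% of all tested genes, and 0% after adjustment by edgeR (2 genes by DESeq2). The means of the 4 groups, with no test of their own, were as follows: mean Slc1a2 was 17.9 ± 3.59 CPM (SD, n = 7) in SAL males and 13.9 ± 1.70 CPM (SD, n = 8) in SAL females, against 14.2 ± 1.61 and 16.8 ± 1.96 CPM (SD, n = 8 each) in NIC males and females. Within the prep batches that held both treatments, the log2 difference was -0.23 in males of batch C (2 rats per treatment), and 0.27 in females of batch J (2 per treatment) and 0.17 in females of batch L (1 NIC and 2 SAL), so the signs were the same within batches. With prep batch as a covariate the differences were -0.21 in males and 0.22 in females, with unadjusted p-values of 0.396 and 0.152 by edgeR, and the interaction was 0.45 (unadjusted p = 0.131 by edgeR). The interaction was 0.57 and the difference in females 0.25 without female VTA nicotine 2.

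Gfap in female VTA had a negative difference. SAL females ranged from 1799 to 2735 CPM with a median of 2288 and NIC females from 865 to 2273 CPM with a median of 1868. All 8 NIC females lay below the SAL median and 3 below the lowest SAL female. The log2 difference was -0.42 (95% interval -0.74 to -0.10), with an adjusted p of 0.509 by edgeR and an exact permutation p of 0.0104. Without female VTA nicotine 2 it was -0.32, the smallest of the 16 values that leave out 1 library, and the largest unadjusted p among them was 0.0316. The 2 batches with both treatments had opposite signs: the log2 difference was -0.75 in batch J (2 rats per treatment) and 0.16 in batch L (1 NIC and 2 SAL), and with prep batch as a covariate it was -0.39 (unadjusted p = 0.141 by edgeR). In male VTA the Gfap difference was -0.09 (95% interval -0.41 to 0.22), and the interaction was -0.32 (SE 0.22, adjusted p = 0.613), or -0.24 without female VTA nicotine 2.

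**Figure D4:**
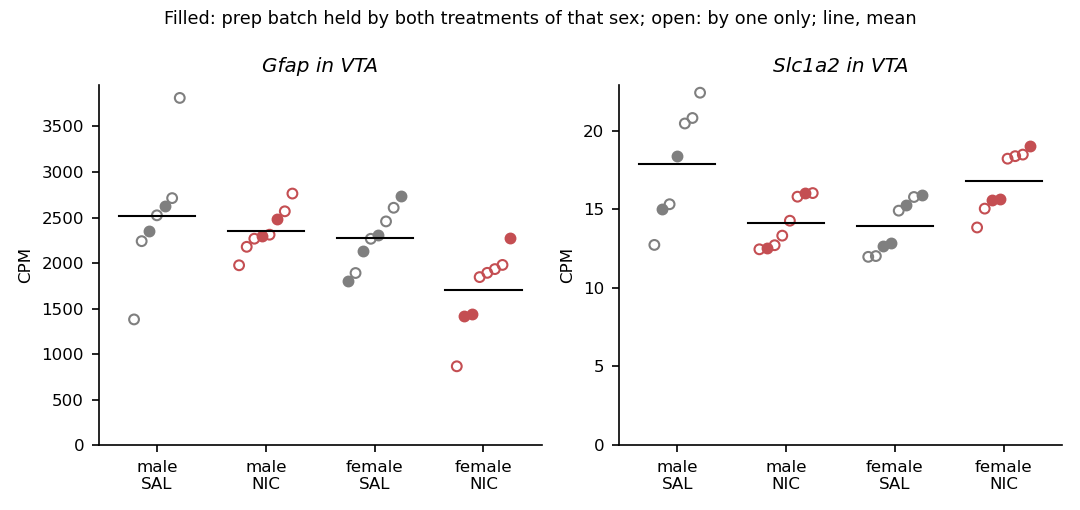
CPM of Gfap and Slc1a2 in each VTA library of males and females, SAL in grey and NIC in red, with filled points for prep batches that hold both treatments of that sex, open points for the others and a line at each mean. Slc1a2 lies lower in NIC males and higher in NIC females than in SAL rats of the same sex, and Gfap lies lower in NIC females, with overlap in each case.

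The other members in VTA had an unadjusted p over 0.05. Aqp4 and Aldh1l1 in female VTA had log2 differences of -0.22 (95% interval -0.47 to 0.04) and -0.23 (-0.49 to 0.03), with exact permutation p-values of 0.0723 and 0.0639, and both depended on single libraries. Without female VTA nicotine 2, which stands apart, they were -0.14 and -0.15, and without female VTA nicotine 3 they were -0.26 and -0.31 and both had an unadjusted p under 0.05, which gave 4 members of 5. In males they were at -0.14 (-0.48 to 0.20) and 0.04 (-0.13 to 0.21), and the Aqp4 value was -0.042 without male VTA nicotine 15, its lowest NIC library, and -0.22 without male VTA nicotine 11. Slc1a3 was at 0.04 in both sexes, with intervals from -0.08 to 0.16 in males and -0.10 to 0.18 in females, the narrowest of the members there. With prep batch as a covariate it was 0.24 in males (unadjusted p = 0.0149, adjusted p = 0.896 by edgeR) and 0.13 in females. With no covariate the female value ranged from 0.013 without female VTA nicotine 7 to 0.072 without female VTA saline 13.

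Genes known from reactive astrocytes had the sign of Gfap in female VTA. All 17 tested had a negative difference, with a median log2 of -0.34 against 0.02 over all genes, and 8 passed the unadjusted threshold of 0.05, where 5.2% of all tested genes were lower. The smallest p-values were those of the immunoproteasome subunit gene Psmb8 (-0.50, SE 0.14) and the membrane protein gene Emp1 (-0.69, SE 0.26). The other 6, named after their values were seen, were the intermediate filament genes Vim (-0.69, SE 0.32) and Nes (-0.34, SE 0.16), the small heat shock protein gene Hspb1 (-0.51, SE 0.20), Aspg (-0.79, SE 0.31), Ggta1 (-0.33, SE 0.13) and the transcription factor gene Stat3 (-0.14, SE 0.065). None passed an adjusted p of 0.05. Of the 17, 16 were found through the study's own tables on these samples, which can raise the count that passed. The list is therefore no independent evidence of its direction or of that count. Genes of other cells also had values below 0 in NIC females: all 7 meningeal fibroblast genes (median -0.71, summed level 156 to 1762 CPM in NIC and 717 to 2316 CPM in SAL), all 7 endothelial genes (median -0.26, 286 to 409 CPM in NIC and 357 to 592 CPM in SAL) and all 4 mural cell genes (median -0.35, 155 to 527 CPM in NIC and 347 to 933 CPM in SAL). Their part in the Gfap difference was not tested. Without female VTA nicotine 2 the 17 reactive genes were all still negative, with a median of -0.33 and 5 at that threshold, and with prep batch as a covariate 16 were negative, with a median of -0.25 and 0 at that threshold. In male VTA the same list had a median of 0.14, with 1 gene, the complement gene C3, at an unadjusted p under 0.05 (-0.27, SE 0.10). Of all tested genes there, 5.62% were at that threshold, and 3.28% were at it and lower in NIC.

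Of the other 6 astrocyte lists in male VTA, 4 held a gene with an unadjusted p under 0.05, in both directions. In the ion transport list 4 of the 9 genes were lower in NIC at an unadjusted p under 0.05, where 3.28% of all tested genes were. Kcnj10 (log2 -0.43, SE 0.14) and the cell adhesion gene Hepacam (-0.19, SE 0.066) had the smallest p-values, and the other 2, named after their values were seen, were Slc4a4 (-0.44, SE 0.17) and Dtna (-0.24, SE 0.11). None of them passed an adjusted p of 0.05, none passed the unadjusted threshold with prep batch as a covariate, and the median of the list was -0.04 (0.02 with that covariate). As 8 of the 9 genes were found through the study's tables on these samples, their count is no independent evidence. Of the 8 oligodendrocyte genes, 3 were also lower there at that threshold (median -0.21, summed level 29940 to 43080 CPM in NIC and 34100 to 47730 CPM in SAL), and their part was not tested. Of the 8 receptor and signalling genes 2 were lower, the endothelin receptor gene Ednrb (-0.42, SE 0.11) and the glutamate receptor gene Grm5 (-0.49, SE 0.19). One each of the 9 gap junction, adhesion and secreted protein genes, the connexin gene Gjb6 (0.23, SE 0.096), and of the 7 transcription factor genes, Id3 (0.21, SE 0.088), were higher, where 2.35% of all tested genes were, and none of the 6 metabolism genes passed. With prep batch as a covariate 1 gene of these 6 lists passed, higher in NIC and in the gap junction list. In female VTA, where 5.2% of all tested genes were lower at that threshold, 2 of the 7 transcription factors were, Id3 (-0.38, SE 0.13) and Id1 (-0.32, SE 0.12), and 1 of the 6 metabolism genes, Mt1 (-0.38, SE 0.17). In that comparison the ion transport list had a median of 0.01 with 2 of the 9 genes lower at an unadjusted p under 0.05. Of the 6 genes for glutamate and amino acid handling, 1 was lower there at that threshold, Slc7a11 (-0.54, SE 0.20), and none was in male VTA. The difference between the sexes in these lists was not tested.

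In NAc no member had an unadjusted p under 0.05 in the edgeR fit, where Gfap came nearest to it in both sexes, but Gfap in male NAc core was under it by the exact permutation test and by DESeq2 (unadjusted p = 0.0476). In male NAc core, SAL libraries ranged from 457 to 726 CPM (median 600) and NIC libraries from 637 to 750 CPM (median 659), with all 8 NIC males above the SAL median. The log2 difference was 0.15 (95% interval -0.0014 to 0.30), with an adjusted p of 0.512 by edgeR and an exact permutation p of 0.0455, and 0.27 within batch C (4 NIC and 2 SAL rats). It ranged from 0.10 to 0.19 when 1 library was left out, with an unadjusted p under 0.05 by edgeR in 3 of 16 such fits, among them the one without male NAc core saline 1 (0.18), which stands apart. In female NAc shell, SAL libraries ranged from 415 to 688 CPM (median 550) and NIC libraries from 487 to 989 CPM (median 622), a log2 difference of 0.28 (95% interval -0.0092 to 0.57) with an exact permutation p of 0.115. Its highest library, female NAc shell nicotine 8, shared batch J with the lowest SAL library, and the difference within that batch was 0.67 (2 rats per treatment), and 0.77 with prep batch as a covariate (unadjusted p = 0.0156 by edgeR). Without female NAc shell nicotine 8 it was 0.17. In female NAc core and male NAc shell Gfap was at 0.09 (-0.11 to 0.28) and -0.02 (-0.21 to 0.17). With the library left out of the comparisons, female NAc core nicotine 1, Gfap in female NAc core was at 0.46 and Aqp4 at 0.34 in place of 0.09, with an unadjusted p over 0.05 for both. The region markers of that library did not match its NAc core label. Its Th and Slc6a3 were at 329 and 382 CPM, against at most 3.90 and 0.921 CPM in the NAc core libraries used.

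The transporters had small differences in NAc, with intervals on both sides of 0. Slc1a2 was at -0.11 (95% interval -0.27 to 0.05) in male NAc core, 0.04 (-0.19 to 0.27) in male NAc shell, 0.07 (-0.10 to 0.25) in female NAc core and -0.04 (-0.23 to 0.15) in female NAc shell. Slc1a3 lay between 0.03 and 0.08 in these 4 comparisons. In batch C of male NAc core, however, its 4 NIC rats, at 648 to 821 CPM, all lay above its 2 SAL rats, at 549 and 564 CPM (log2 0.35), and with prep batch as a covariate the difference was 0.36 there (unadjusted p = 0.00253, adjusted p = 0.285 by edgeR). That covariate also moved Slc1a3 to 0.228 in male NAc shell and 0.156 in female NAc shell, with an unadjusted p over 0.05 in each. Of the 17 reactive genes, 4 were higher in male NAc core at an unadjusted p under 0.05 (median 0.20), where 5.78% of all tested genes were, and 7 with prep batch as a covariate, which also took the genes at that threshold in either direction from 1660 to 1956 of 16879. As 16 of the 17 were found through the study's own tables on these samples, which can raise both counts, neither count is independent evidence. In the other 3 NAc comparisons that list had medians between 0.01 and 0.06 and at most 1 gene past that threshold. Of all tested genes, 2.46% were past it in male NAc shell, 6.45% in female NAc core and 10.1% in female NAc shell. The interactions of sex and treatment in NAc were between -0.08 and 0.30 over the 5 genes, all with unadjusted p-values over 0.05 without a batch term, while 8.89% of all genes were under it in the core and 8.07% in the shell, and 0% passed the adjusted threshold of edgeR in either (0 and 2 genes by DESeq2). With prep batch as a covariate the Gfap interaction in the shell was 0.84 (unadjusted p = 0.0237, adjusted p = 0.737 by edgeR) and the Slc1a3 interaction in the core was -0.34 (unadjusted p = 0.0203, adjusted p = 0.638 by edgeR). Without male NAc shell saline 1 the Aqp4 interaction in the shell went from 0.11 to 0.17, and 1685 genes instead of 1362 were under the unadjusted threshold. Over the 30 exact permutation tests, the lowest adjusted p was 0.156.

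**Figure D5:**
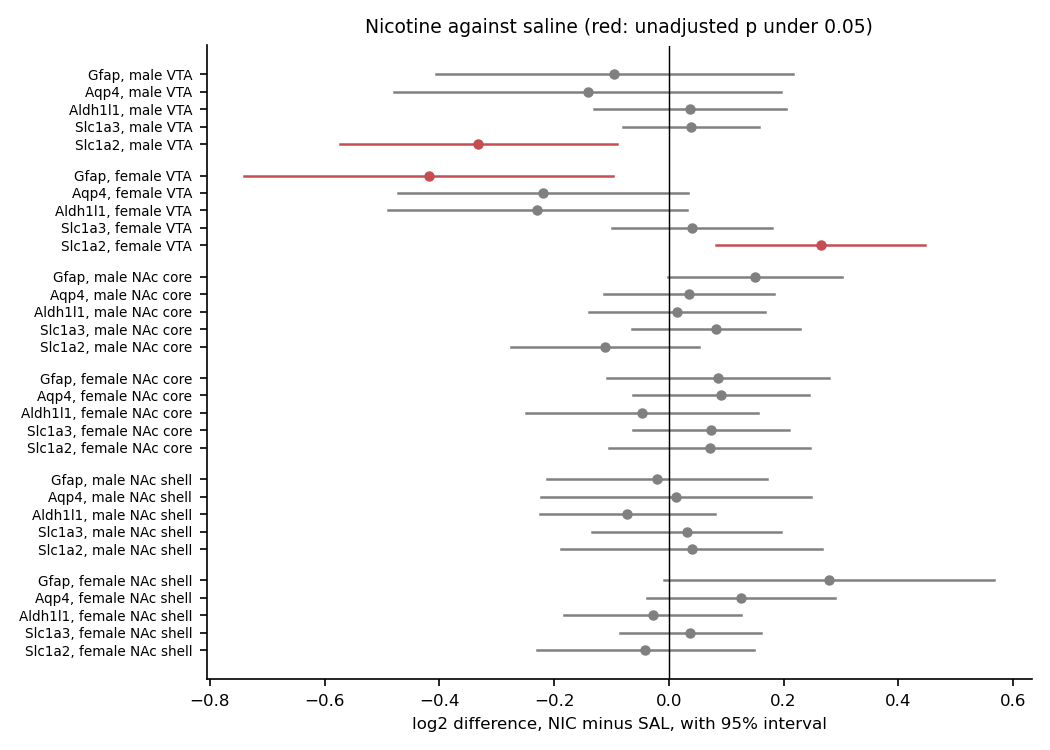
Log2 difference between NIC and SAL for each gene, sex and region, with 95% intervals from the edgeR fit and red for an unadjusted p under 0.05. Slc1a2 in male VTA and Gfap in female VTA lie left of 0 and Slc1a2 in female VTA lies right of it, and the other 27 intervals include 0.

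Sexes differed in 3 of the genes, but each sex came from its own box and only 1 of the prep batches held both sexes, so sex and batch cannot be told apart. In NAc core, females had less Gfap (log2 -0.27, SE 0.06, adjusted p = 0.000758) and less Aldh1l1 (-0.17, SE 0.06, adjusted p = 0.0265) and more Aqp4 (0.19, SE 0.053, adjusted p = 0.00691). Mean Gfap there was 609 ± 82.2 and 677 ± 42.5 CPM in SAL and NIC males (SD, n = 8 each) and 512 ± 78.5 and 545 ± 65.4 CPM in SAL and NIC females (SD, n = 8 and 7). In VTA, Aldh1l1 was lower in females (-0.29, SE 0.079, adjusted p = 0.0426), and Gfap at -0.31 had an adjusted p of 0.129. The Aldh1l1 difference was -0.25 without female VTA nicotine 2, where 260 genes instead of 393 passed, and without male NAc core saline 1 the core differences were -0.27 for Gfap, -0.17 for Aldh1l1 and 0.18 for Aqp4, with the same calls. With female NAc core nicotine 1 added, a library whose region markers did not match its label, Gfap was at -0.097 and Aldh1l1 at -0.084 and neither passed. Markers of other cells differed by sex in NAc core as well: 7 of the 8 striatal projection neuron genes were higher in females (median log2 0.71, summed level 336.7 to 3812 CPM in males and 2341 to 5353 CPM in females), as were all 3 ependymal genes (median 1.64, 3.008 to 11.12 CPM and 4.964 to 28.05 CPM), while 4 of the 7 general neuron genes (median -0.215, 3217 to 7234 CPM and 3711 to 5179 CPM) and 4 of the 7 meningeal fibroblast genes (median -0.491, 285.2 to 1188 CPM and 170.6 to 579.7 CPM) were lower. Their part in the astrocyte differences was not tested. No member passed in NAc shell. The test called 2.33% of genes in VTA, against 32.9% in the core and 21% in the shell, the shares against which these counts are to be read. With prep batch as a covariate, a fit that rests on the batch with both sexes, the Aldh1l1 difference in VTA was 0.0047 (unadjusted p = 0.980 by edgeR), and the fit could not be made for NAc core. The Slc1a3 difference in VTA was 0.024 in the main fit and reached 0.371 among the alternative settings. An unadjusted p under 0.05 came in 1 of those settings and an adjusted one in 0.

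Rats of one group that had more Gfap also had more Aqp4 and Aldh1l1 in VTA. With log2 CPM centred within the 12 groups, r over the 31 VTA libraries was 0.73 for Gfap with Aqp4 and 0.78 for Gfap with Aldh1l1, while Aqp4 with Aldh1l1 was at 0.45. Without female VTA nicotine 2 the values were 0.63, 0.65 and 0.20, and over all 31 libraries Spearman's rho was 0.72, 0.50 and 0.25. The transporters did not follow: Gfap correlated with Slc1a3 at -0.29 and with Slc1a2 at -0.38 in VTA, and Slc1a3 with Slc1a2 at 0.23. In NAc shell Gfap and Aqp4 were at 0.56 and in NAc core at 0.03. These are descriptions over libraries that share depth scaling and dissection, with no test.

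Over all 94 libraries, the genes with a symbol most like each member were taken by the same centred r, among 14453 genes with a mean of at least 1 CPM. For Gfap they were Txnip (0.64), the galectin gene Lgals3 (0.63) and Ssc5d (0.63). For Aqp4 they were the caveolin gene Cav2 (0.78), the oxidative stress factor gene Nfe2l2 (0.76) and the pantothenate kinase gene Pank3 (0.73). For Aldh1l1 they were the tetraspanin gene Cd63 (0.70), the glutathione transferase gene Gsta4 (0.67) and Psme1 (0.62), with Gfap itself at 0.60. For Slc1a3 they were the neurotrophin receptor gene Ntrk2 (0.68), the mitochondrial carrier gene Sfxn5 (0.68) and Zc3h7b (0.67). For Slc1a2 the closest were weaker, Zfp444 (0.48), Clip4 (0.47) and Adgrb3 (0.46), and none of the other 4 members was among the 3 closest of any member.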

How the data were processed

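The authors trimmed paired-end reads with fastp 0.20.0, quantified them with salmon 0.12.0 on Rnor 6 and collapsed them with tximport, and deposited one estimated count per gene and library, as whole numbers, for 96 libraries. Library totals ranged from 15868529 to 27736905 counts. Groups came from the labels. The 94 libraries used left out male VTA saline 5 R1, one of 2 runs of one sample, and female NAc core nicotine 1.

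Counts were scaled by TMM and tested in R 4.3.3 with edgeR 4.0.16 (quasi-likelihood, Benjamini-Hochberg adjustment over all 16879 genes kept by the filter, above 10 after size-factor scaling in 3 or more libraries), beside two-sided exact permutation tests of log2 CPM, adjusted over 30, and DESeq2 1.42.0. Regions were fitted over all 12 groups, and NIC against SAL within sex and region. Methods were tested on simulated data. Region samples are paired through the rat named in the labels, and the fit with that replicate block is an alternative. Each list's named genes were up to 3 higher and 3 lower with the largest differences among those called, or else up to 2 with the smallest p. Symbols, 7926 of 17637 genes, came from the study's tables. The members and lists were chosen with earlier results of these data known.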

Additional observations from a re-analysis of the deposited data

Results flagged for a closer look

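A sample lay far from the others of its group in 3 of the 60 gene and group pairs, about the 1 in 20 that chance gives. Aqp4 in male VTA nicotine 15 was at 547.2 CPM, with the nearest library at 930.3 CPM. Aqp4 in male NAc core nicotine 9 was at 488.9 CPM, with the nearest at 397.8 CPM. Slc1a2 in female NAc core saline 9 was at 28.15 CPM, with the nearest at 23.98 CPM.

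The difference between the sexes in the response of Slc1a2 in VTA, 0.605 on the log2 scale as female minus male, passed the test of the difference itself at an unadjusted p of 0.000212 by edgeR and not at an adjusted one (0.350). With prep batch as a covariate it was 0.45, with an unadjusted p of 0.131 by edgeR.

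One library outside the comparisons, female NAc core nicotine 1, held Gfap at 1824 CPM, Aqp4 at 1087 CPM and Aldh1l1 at 46.72 CPM, above the highest female NAc core SAL values of 653.8, 470.3 and 26.17 CPM. Its Slc1a3 was at 462.4 CPM and its Slc1a2 at 15.43 CPM. All 5 values lie within the range of the VTA libraries, and its Th, at 329 CPM, does too. Its Slc6a3 at 382 CPM and its Drd1 at 1.69 CPM also lie within that range. The NAc core libraries used had at most 0.921 CPM of Slc6a3 and at least 9.28 CPM of Drd1.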

How the results depend on the processing

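The region differences of the 5 genes between VTA and NAc kept their direction and their side of the threshold under every alternative run: DESeq2 size factors, DESeq2's test, no count filter, all mapped libraries, prep batch, the replicate block, and without the libraries that stand apart, which was chosen after seeing the data. With the rat as a replicate block, which uses the pairing of regions within an animal, Gfap was at 1.90, Aqp4 at 1.45, Aldh1l1 at 1.45, Slc1a3 at -0.42 and Slc1a2 at -0.60 against NAc core, and no call changed. All mapped libraries include female NAc core nicotine 1, whose region markers did not match its NAc core label. With all mapped libraries the differences between NAc core and NAc shell turned to 0.010 for Gfap, 0.045 for Aqp4 and 0.022 for Aldh1l1, the nicotine differences in female NAc core moved to 0.46 for Gfap and 0.34 for Aqp4 and turned to 0.15 for Aldh1l1, the NAc core interactions of Gfap and Aldh1l1 turned to 0.31 and 0.14, and 1 member instead of 3 differed by sex in NAc core.

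Many nicotine, sex and interaction values depended on prep batch. With it as a covariate, 0 members instead of 2 had an unadjusted p under 0.05 in female VTA, 1 instead of 0 in male NAc core and in female NAc shell, 0 instead of 1 in the VTA interaction, and 1 instead of 0 in the NAc core and NAc shell interactions, while 0 instead of 1 differed by sex in VTA at the adjusted threshold. The sex fit in NAc core could not be made with it. Over all genes it changed the count at that threshold from 1559 to 295 in female VTA, 415 to 2013 in male NAc shell, 1709 to 629 in female NAc shell and 1853 to 462 in the VTA interaction, and the adjusted sex calls from 393 to 10 in VTA and 3543 to 8 in NAc shell. DESeq2's test made 768 sex calls in VTA, and all 12 groups in one fit gave 743 genes in male NAc shell. Directions turned for Aqp4 in male VTA (0.10) and male NAc shell (-0.18), Slc1a2 in male NAc core (0.069), the sex differences of Aldh1l1 (0.0047) and Slc1a2 (0.16) in VTA and of Gfap (0.25), Slc1a3 (0.13) and Slc1a2 (0.24) in NAc shell, and the interactions of Slc1a3 in VTA (-0.093) and NAc shell (-0.071) and of Aqp4 (-0.043) and Slc1a2 (-0.058) in NAc core. Without a count filter, 1 member passed in male NAc core and 0 by sex in VTA, and the Slc1a3 interactions were -0.0018 in VTA and -0.0001712 in NAc shell. DESeq2's test gave 1 in male NAc core, and all 12 groups in one fit gave 1 in female NAc shell. The cause was not tested.

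Leaving out 1 library at a time gave 2 to 4 members under that threshold in female VTA (4 without female VTA nicotine 3), 0 to 1 in male NAc core and 0 to 2 in female NAc shell (2 without female NAc shell nicotine 5). Differences that changed sign on the way ranged in male VTA from -0.202 to 0.037 (Gfap), -0.010 to 0.103 (Aldh1l1) and -0.0011 to 0.070 (Slc1a3), in male NAc core from -0.023 to 0.067 (Aqp4) and -0.015 to 0.055 (Aldh1l1), in male NAc shell from -0.066 to 0.036 (Gfap), -0.043 to 0.063 (Aqp4), -0.030 to 0.060 (Slc1a3) and -0.021 to 0.104 (Slc1a2), and for Aldh1l1 in female NAc core from -0.109 to 0.019. In female NAc shell they ranged from -0.062 to 0.0052 (Aldh1l1) and -0.078 to 0.014 (Slc1a2). Without female VTA nicotine 2 the Slc1a3 interaction in VTA was -0.019. Slc1a2 rests on the fewest counts, 216 to 604 per library.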
